A study of Arabidopsis thaliana with 8 samples.

Results

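The response of wild type WS roots to ATP was measured gene by gene, by subtracting log2(FPKM + 1) of untreated roots from that of roots kept with ATP for 60 min. FPKM is the number of sequenced fragments of a gene scaled to transcript length and to library size. Genes were kept as members where FPKM was 1 or more in either condition and where the scaled counts of the 2 conditions added up to 12 or more. This left 18786 of the 33544 genes with values in the deposited table. WS is the Wassilewskija accession of Arabidopsis thaliana, and its roots were compared in the study with those of gpa1-2, a null mutant of the α subunit of the heterotrimeric G protein. The study asked how roots sense and avoid extracellular ATP. All seedlings were grown on Murashige and Skoog medium diluted to 1/2 under long days, and per the labels were 4 days old when moved onto medium with ATP. ATP-treated WS roots were taken 60 min after the move, and untreated WS roots before it. The labels call the material root, and the methods state that RNA was drawn from root tips and that only the tip lay on the ATP medium. A difference between them therefore holds the response to ATP together with the transfer and 60 min of time, and these cannot be told apart. The sources give different seedling ages for this experiment, and the age of the labels is used here. They also give different concentrations of ATP for it, and none is stated here.

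ATP outside the cell serves plants as a signal of wounding and of growing or touched tissue. It is bound in Arabidopsis by DORN1, a lectin receptor kinase of the plasma membrane, and its binding is followed by calcium influx, reactive oxygen and the activation of mitogen-activated protein kinases. Apyrases remove it from the cell wall, and part of its early transcript response overlaps in the literature with that to wounding and to jasmonate.

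The labels give 2 biological replicates per condition, but the table holds 1 pooled value per gene and condition, so no difference below has a replicate error or a test across replicates. A member was called raised or lowered where its log2(FPKM + 1) difference was 1 or more in size, and such a call describes these pooled libraries. Because 1 is added to every FPKM, the difference understates the change of genes of low FPKM. The depth recovered from the steps of the low values was 12212810 reads in ATP-treated WS and 11780447 reads in untreated WS. Intervals are exact 95% Clopper-Pearson intervals of the log2 ratio of the reads behind the scaled counts, and cover counting error only. They belong to a ratio with nothing added, so the log2(FPKM + 1) difference of a gene of low level can lie below its interval in size. The columns bear a number only, and their condition follows the direction of the comparison recorded in the table. Every sign below would turn if that record were reversed. All 14 root cell type markers were members, among them CASP1 of the endodermis at 391 FPKM in ATP-treated and 444 FPKM in untreated roots. Of 13 green shoot markers, the highest, PSAD1, was at 4.74 FPKM in ATP-treated and 8.72 FPKM in untreated roots. Of the 13, 7 were members, with a median difference of -0.71, and 5 of the 7 lay below 0. Of these members 2 were lowered (28.6%), beside 3.42% of all members, and none was raised. The 13 summed to 27.3 FPKM in ATP-treated and 40.1 FPKM in untreated roots, and their part in the results was not tested. In bulk tissue, fewer cells of a type and less RNA per cell cannot be told apart.

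Most members differed little between the conditions. The difference lay within 0.5 for 14446 members, or 76.9%, with a median of -0.01 and quartiles of -0.26 and 0.25. Of the 18786 members, 536 were raised (2.85%), 643 were lowered (3.42%) and 17607 were neither. The 536 raised genes had a median of 25.9 FPKM in ATP-treated and 7.55 FPKM in untreated roots. The 643 lowered genes had a median of 9.12 FPKM in ATP-treated and 26.9 FPKM in untreated roots. A difference of 2 or more was reached upward by 86 members and downward by 75.

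The calls were not confined to thinly covered genes. Among the 5264 members with a scaled count sum of 12 to 100, 3.06% were raised and 4.14% were lowered. Of 10460 members with a sum of 100 to 1000 these shares were 2.52% and 3.04%, and of 3062 members with a sum of 1000 or more they were 3.63% and 3.49%. The 13522 members with a sum of 100 or more are called well covered below, and 375 of them were raised (2.77%) and 425 lowered (3.14%). The member nearest to the minimum had a sum of 12.1, and the gene just outside it had 11.8. Without the minimum, 1115 further genes entered, of which 418 differed by 1 or more. Among members, 5948 overlap another annotated gene, including 130 of the raised and 135 of the lowered genes, and reads of such pairs could not be separated here since the use of strand is not given.

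**Figure D1:**
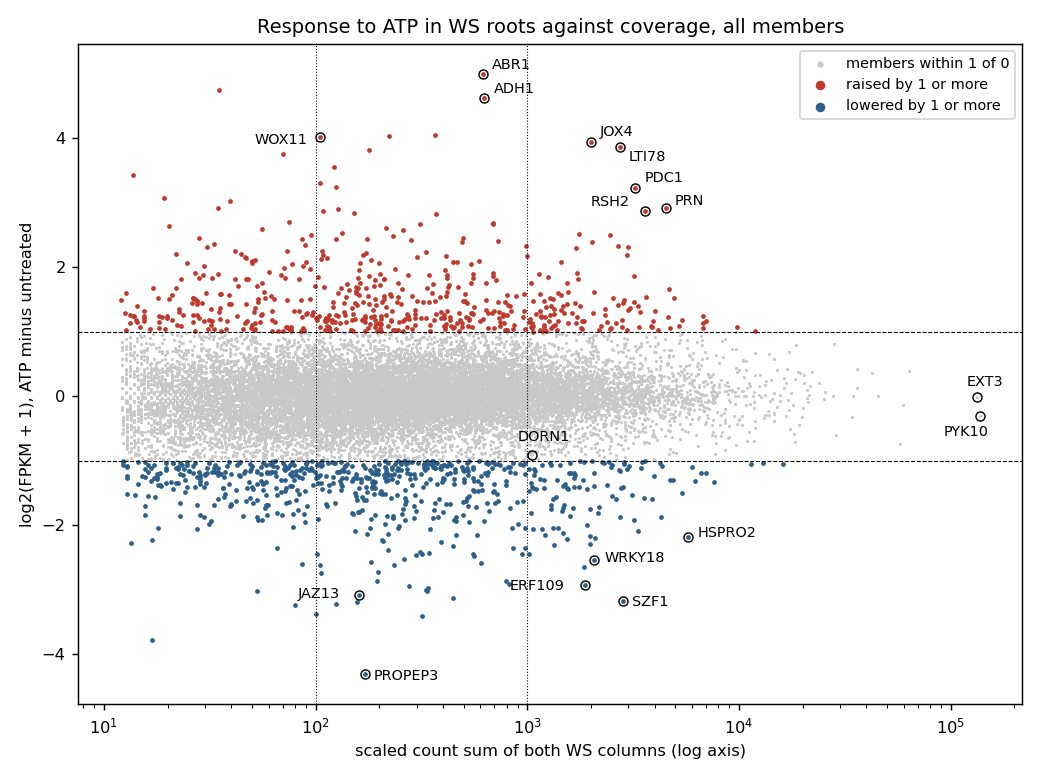
Difference of log2(FPKM + 1), ATP-treated minus untreated WS roots (vertical axis), against the scaled count sum of both conditions (horizontal log axis) for the 18786 members, each a point. Dashed lines mark differences of 1 and -1 and dotted lines sums of 100 and 1000; raised and lowered genes lie in all 3 coverage ranges, from ABR1 at 4.99 to PROPEP3 at -4.31, while the most deeply covered genes, PYK10 and EXT3, lie near 0.

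Gene lists of known pathways differed widely in how many members moved. The lists were written with earlier results of these data known, so their shares are not independent of these values. Of 24 lists with 356 distinct genes, the low-oxygen response had the highest median difference (1.80) and the JAZ repressors of jasmonate signalling the lowest (-1.73), beside -0.01 over all members. The lists of root hair growth, the circadian clock, phosphate starvation and extracellular ATP perception had no member past 1 in either direction. Among all members 2.85% were raised and 3.42% lowered, so a short list without a call is near those shares.

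**Figure D2:**
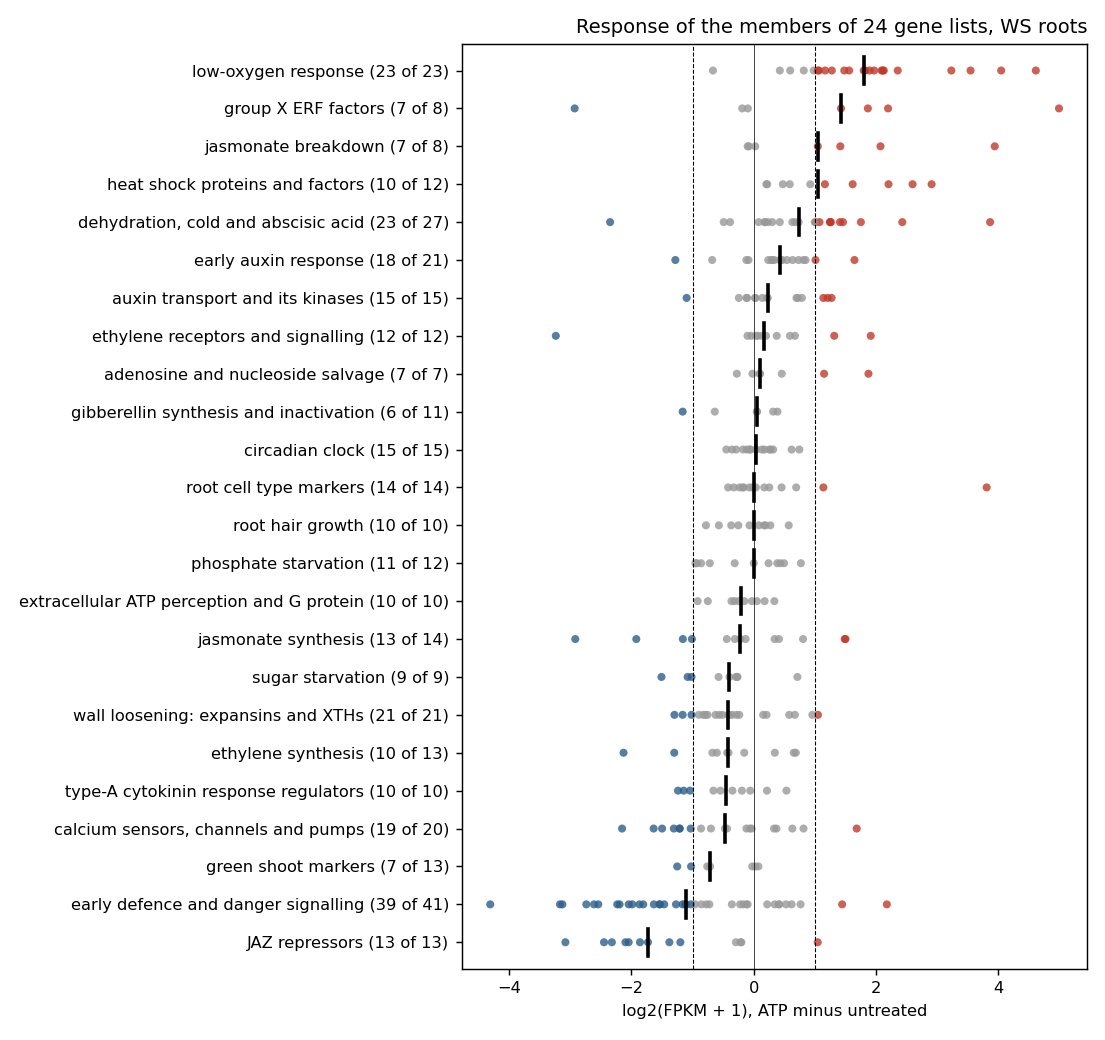
Difference of log2(FPKM + 1), ATP-treated minus untreated WS roots (horizontal axis), of each member of the 24 lists, with raised members in red, lowered in blue and the others in grey. Black bars are list medians, dashed lines mark 1 and -1, and brackets give members of listed genes; the lists run from low-oxygen response at 1.80 down to JAZ repressors at -1.73.

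The clearest shared rise was that of the genes of low-oxygen metabolism. Under low oxygen, plant cells turn to ethanol and lactate fermentation, and a small set of genes under the group VII ERF factors is switched on in most tissues. Of the 23 listed genes, all were members, 18 were raised and none was lowered, beside 2.85% raised among all members, and 22 of the 23 differences were above 0. ADH1, the alcohol dehydrogenase of ethanol fermentation, was at 78.3 FPKM in ATP-treated and 2.24 FPKM in untreated roots, a difference of 4.61 (interval of the read ratio 4.61 to 5.69). PDC1, the pyruvate decarboxylase just before it in the pathway, was at 243 FPKM in ATP-treated and 24.98 FPKM in untreated roots, a difference of 3.23 (interval 3.15 to 3.41). Its paralogue PDC2 was at 67.0 FPKM in ATP-treated and 27.1 FPKM in untreated roots. Both steps of ethanol formation were thus higher in the ATP-treated library, and LDH1 of the lactate branch, at 49.6 FPKM in ATP-treated and 27.7 FPKM in untreated roots, stayed below the threshold with 0.82.

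Sucrose breakdown and alanine formation moved with them. SUS4, a sucrose synthase that splits sucrose with little use of energy, was at 30.7 FPKM in ATP-treated and 6.43 FPKM in untreated roots, and SUS1 was at 75.6 FPKM in ATP-treated and 33.1 FPKM in untreated roots. ALAAT1, an alanine aminotransferase, was at 196 FPKM in ATP-treated and 93.1 FPKM in untreated roots. HB1, a haemoglobin that scavenges nitric oxide, was at 109 FPKM in ATP-treated and 30.1 FPKM in untreated roots, a difference of 1.83. NIP2;1, an aquaporin-like channel of the root that passes lactic acid, was at 61.2 FPKM in ATP-treated and 2.76 FPKM in untreated roots, a difference of 4.05 (interval 3.92 to 5.07). These 5 genes were all raised, by 1.07 for ALAAT1 up to 4.05 for NIP2;1.

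Regulators of the low-oxygen response were among the raised genes. PCO1 and PCO2 are the oxygen-using oxidases that mark group VII ERF proteins for breakdown. PCO1 was at 31.3 FPKM in ATP-treated and 7.25 FPKM in untreated roots and PCO2 at 14.1 FPKM in ATP-treated and 2.45 FPKM in untreated roots, differences of 1.97 and 2.13. HRE1 and HRE2 are group VII ERF factors whose own transcripts answer to low oxygen. HRE1 was at 96.4 FPKM in ATP-treated and 46.1 FPKM in untreated roots, and HRE2 at 9.88 FPKM in ATP-treated and 1.13 FPKM in untreated roots on only 54 and 6 reads. HRA1, a trihelix factor that restrains the response, was at 66.7 FPKM in ATP-treated and 22.0 FPKM in untreated roots. Among genes of unknown function in the list, AT5G10040 was at 78.6 FPKM in ATP-treated and 5.82 FPKM in untreated roots, a difference of 3.55. The 5 members that were not raised were LBD41 (0.98), LDH1 (0.82), AT4G39675 (0.60), AT4G27450 (0.43) and SRO5 (-0.67), and only SRO5 was below 0.

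**Figure D3:**
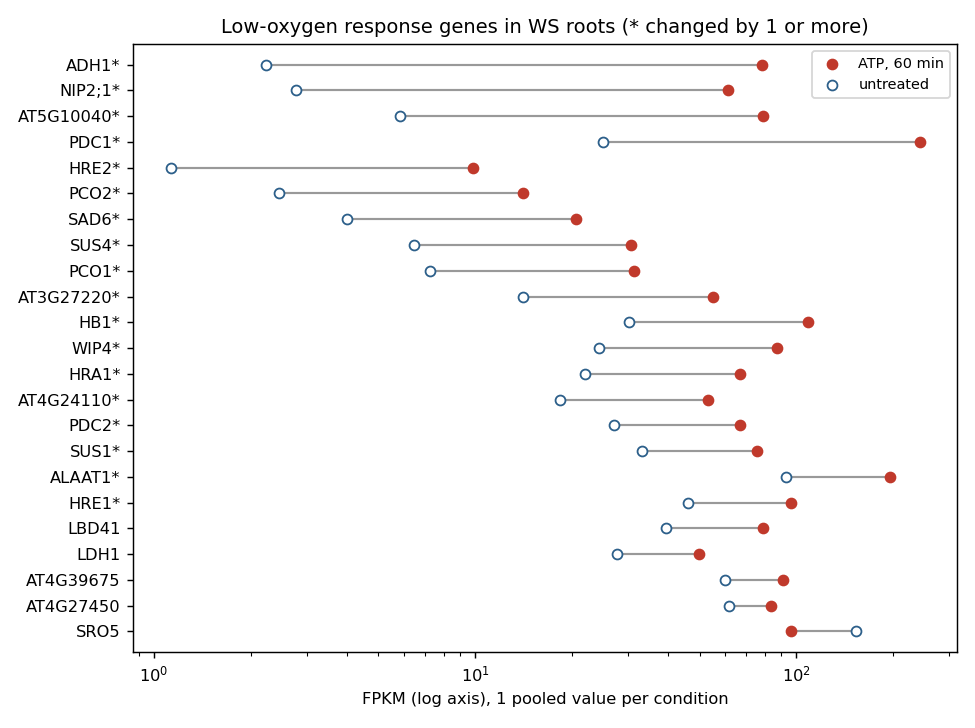
FPKM on a log axis of the 23 low-oxygen response genes in ATP-treated (filled red) and untreated (open blue) WS roots, 1 pooled value per condition, ordered by their log2(FPKM + 1) difference. The ATP-treated point lies right of the untreated point for 22 genes and left of it for SRO5, and stars mark the 18 genes raised by 1 or more.

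Genes of dehydration, cold and abscisic acid rose in part. Of 27 listed genes 23 were members, of which 10 were raised (43.5%) and 1 was lowered (4.35%), beside 2.85% raised and 3.42% lowered among all members, with a median of 0.74. LTI78, also known as RD29A, a classic target of both abscisic acid and the DREB factors, was at 179.6 FPKM in ATP-treated and 11.4 FPKM in untreated roots, a difference of 3.87 (interval 3.81 to 4.16). LEA7, a late embryogenesis abundant protein of drying tissue, was at 28.5 FPKM in ATP-treated and 4.47 FPKM in untreated roots. The dehydrin LTI30 was at 544 FPKM in ATP-treated and 204 FPKM in untreated roots, and its relative ERD10 at 973 FPKM in ATP-treated and 482 FPKM in untreated roots, differences of 1.41 and 1.01. KIN1, a small cold-induced protein, was at 229 FPKM in ATP-treated and 67.3 FPKM in untreated roots, and its neighbour KIN2, which is very similar in sequence, at 1097 FPKM in ATP-treated and 519.7 FPKM in untreated roots. All 5 of these protective proteins were raised.

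The hormone genes of the same list were mixed. NCED3, the enzyme that limits abscisic acid synthesis under drought, was at 9.9998 FPKM in ATP-treated and 55.0 FPKM in untreated roots and was the only member lowered (-2.35). Of the clade A phosphatases that hold abscisic acid signalling off, ABI1 was raised, at 145 FPKM in ATP-treated and 60.2 FPKM in untreated roots. HAB1 (0.23), HAB2 (-0.49), PP2CA (0.18), ABI2 (0.30), HAI1 (0.18) and HAI2 (0.74) stayed within 1. GOLS2, a galactinol synthase that starts the raffinose sugars of dry tissue, was at 3.03 FPKM in ATP-treated and 0.682 FPKM in untreated roots. Outside the list, its relative GolS4 was at 16.6 FPKM in ATP-treated and 1.35 FPKM in untreated roots, a difference of 2.90. HVA22D, an abscisic acid-responsive gene also outside the list, was at 461 FPKM in ATP-treated and 87.0 FPKM in untreated roots, one of the 10 largest rises among members with a sum of 1000 or more. COR15A and COR15B were listed at 0 in both WS conditions.

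Jasmonate genes parted by their role. Jasmonate, a hormone of wounding made from membrane lipids, acts by the breakdown of JAZ proteins, whose own genes are among its fastest targets, and it is removed by hydroxylases and a sulphotransferase. Of the 13 JAZ repressors, 9 were lowered and 1 was raised, beside 3.42% lowered and 2.85% raised among all members, with a median of -1.73. JAZ13 was at 5.23 FPKM in ATP-treated and 51.7 FPKM in untreated roots (-3.08, interval -3.93 to -2.73), JAZ7 at 16.0 FPKM in ATP-treated and 91.6 FPKM in untreated roots, and JAZ5 at 12.2 FPKM in ATP-treated and 65.1 FPKM in untreated roots. The most abundant of them, JAZ1, was at 284 FPKM in ATP-treated and 654 FPKM in untreated roots, a difference of -1.20, and JAZ2 was at 93.5 FPKM in ATP-treated and 404 FPKM in untreated roots, a difference of -2.10. JAZ6, JAZ8, JAZ9 and JAZ10 had differences of -1.73, -2.05, -1.86 and -1.38. JAZ3, JAZ11 and JAZ12 lay within 0.5 of 0, and JAZ4, at 3.87 FPKM in ATP-treated and 1.36 FPKM in untreated roots, was the member that was raised. Together the JAZ transcripts summed to 836 FPKM in ATP-treated and 2247 FPKM in untreated roots.

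Enzymes that take jasmonate away were flat or raised. Of the 8 listed genes 7 were members, 4 were raised and none was lowered, again beside 2.85% raised and 3.42% lowered among all members, with a median of 1.05. JOX4 (AT2G38240), which hydroxylates jasmonic acid to an inactive form, was at 267 FPKM in ATP-treated and 16.4 FPKM in untreated roots, a difference of 3.94 (interval 3.82 to 4.23). Its relatives JOX3 and JOX2 were at 15.9 FPKM in ATP-treated and 5.35 FPKM in untreated roots and at 612 FPKM in ATP-treated and 296 FPKM in untreated roots. ST2A, which sulphates hydroxyjasmonate, was at 47.9 FPKM in ATP-treated and 10.6 FPKM in untreated roots, a difference of 2.07. The P450 oxidases of the conjugated hormone, CYP94B1, CYP94B3 and CYP94C1, differed by 0.02, -0.08 and -0.10. The 4 raised genes were thus the hydroxylases of the free acid and ST2A, and none was a CYP94 gene.

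The synthesis genes were mixed, with 4 of 13 members lowered and 2 raised, beside 3.42% lowered and 2.85% raised among all members. Their median was -0.22. LOX4 and LOX3, lipoxygenases of the first step, were at 4.66 FPKM in ATP-treated and 41.8 FPKM in untreated roots and at 2.66 FPKM in ATP-treated and 12.9 FPKM in untreated roots, differences of -2.92 and -1.92. LOX6, the lipoxygenase of early wound signalling in roots and xylem, went the other way, at 58.0 FPKM in ATP-treated and 19.8 FPKM in untreated roots, a difference of 1.501. AOS of the next step was at 119.8 FPKM in ATP-treated and 242 FPKM in untreated roots, and OPCL1 of the peroxisome at 82.1 FPKM in ATP-treated and 185 FPKM in untreated roots, both lowered. OPR3, at 331 FPKM in ATP-treated and 449 FPKM in untreated roots, and the 4 allene oxide cyclases, from -0.31 for AOC3 to 0.41 for AOC2, stayed within 1. JAR1, which joins jasmonic acid to isoleucine to make the active hormone, was at 179 FPKM in ATP-treated and 63.0 FPKM in untreated roots, a difference of 1.49.

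**Figure D4:**
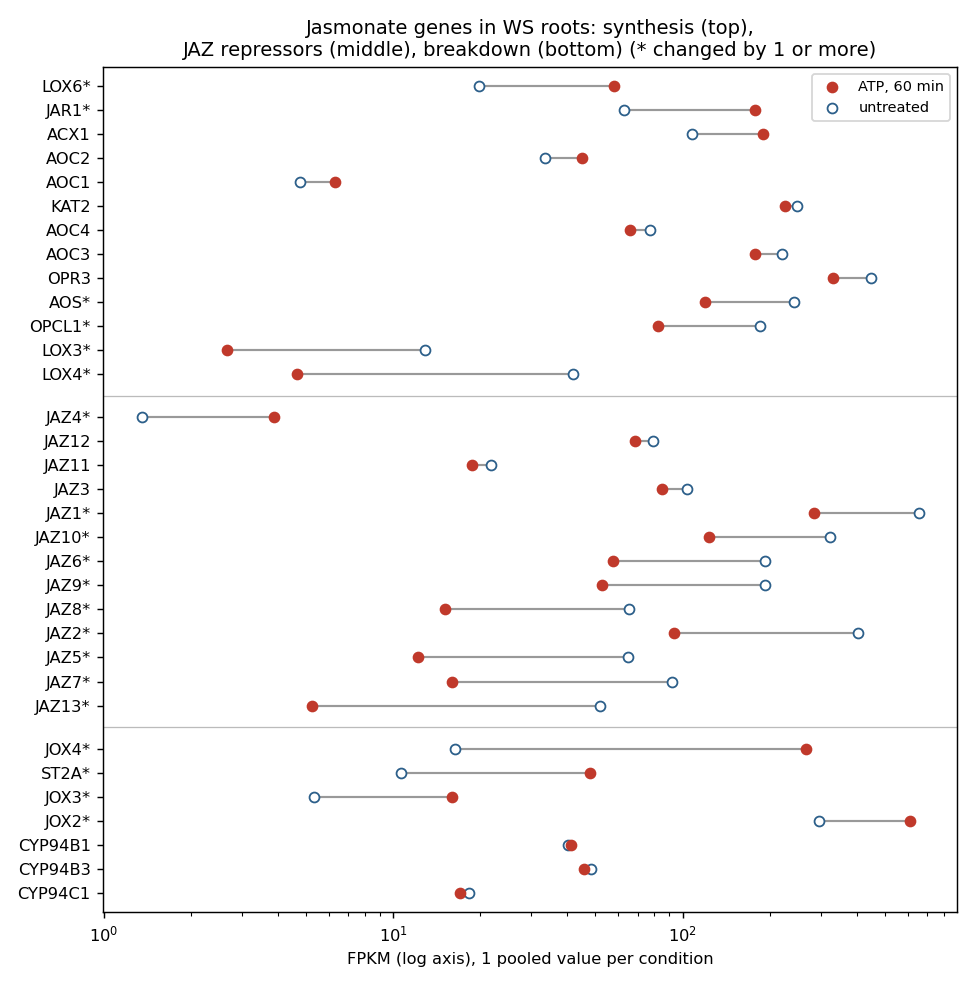
FPKM on a log axis of the jasmonate synthesis genes (top block, 13 members), JAZ repressors (middle block, 13) and breakdown enzymes (bottom block, 7) in ATP-treated (filled red) and untreated (open blue) WS roots, 1 pooled value per condition. Stars mark differences of log2(FPKM + 1) of 1 or more; 12 of 13 JAZ genes lie lower with ATP, and JOX4 has the widest gap of the bottom block.

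Early defence genes were mostly lower in ATP-treated roots. The list holds genes of the early response to microbial patterns and danger peptides, among them receptors and kinases that pass the signal on. Of 41 listed genes 39 were members, of which 21 were lowered (53.8%) and 2 raised (5.13%), beside 2.85% raised and 3.42% lowered among all members, with a median of -1.10 (-0.87 with 5 added to FPKM in place of 1). PROPEP3, the precursor of a danger peptide released by wounded cells, had the largest fall among well-covered members, at 3.72 FPKM in ATP-treated and 92.6 FPKM in untreated roots, a difference of -4.31 on 12 and 291 reads (interval -5.61 to -3.81). PROPEP2 was at 5.08 FPKM in ATP-treated and 39.5 FPKM in untreated roots, and PROPEP1 at 50.2 FPKM in ATP-treated and 186 FPKM in untreated roots. Of the receptors of these peptides, PEPR2 was lowered, at 8.42 FPKM in ATP-treated and 28.2 FPKM in untreated roots, whereas PEPR1 was at 57.7 FPKM in ATP-treated and 63.0 FPKM in untreated roots, a difference of -0.12.

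Transcription factors made up much of the fall. WRKY18 and WRKY40, repressors that limit defence and pair with each other, were at 45.8 FPKM in ATP-treated and 272 FPKM in untreated roots and at 60.0 FPKM in ATP-treated and 278 FPKM in untreated roots, differences of -2.54 and -2.19. WRKY33, needed for camalexin and resistance to necrotrophic fungi, was at 44.9 FPKM in ATP-treated and 159.6 FPKM in untreated roots. WRKY53 was at 3.77 FPKM in ATP-treated and 21.4 FPKM in untreated roots, and WRKY30 at 4.14 FPKM in ATP-treated and 30.4 FPKM in untreated roots. The repressor zinc finger ZAT10 was at 41.3 FPKM in ATP-treated and 174 FPKM in untreated roots, and SZF1, a CCCH zinc finger of the salt response, at 22.6 FPKM in ATP-treated and 211 FPKM in untreated roots, a difference of -3.17 (interval -3.36 to -3.09). ERF13 was at 9.31 FPKM in ATP-treated and 89.2 FPKM in untreated roots, and ERF2 at 7.90 FPKM in ATP-treated and 24.9 FPKM in untreated roots. These 9 factors had at least 209 reads in untreated roots.

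Other members of the list held their level or moved the opposite way. MPK3, a mitogen-activated protein kinase of defence, was at 22.3 FPKM in ATP-treated and 91.1 FPKM in untreated roots, a difference of -1.99, while its partner MPK6 was at 65.0 FPKM in ATP-treated and 55.7 FPKM in untreated roots, a difference of 0.22. The kinase kinases above them, MKK4 and MKK5, differed by -0.10 and 0.34, and BIK1, the kinase beneath pattern receptors, by 0.41. WRKY29 was raised, at 179 FPKM in ATP-treated and 38.8 FPKM in untreated roots, a difference of 2.18, and so was ZAT6, at 79.8 FPKM in ATP-treated and 28.7 FPKM in untreated roots. WRKY22, which acts close to WRKY29, was at 54.3 FPKM in ATP-treated and 31.5 FPKM in untreated roots. FRK1, a kinase widely used as a reporter of pattern signalling, was at 1.48 FPKM in ATP-treated and 0.616 FPKM in untreated roots. CBP60G and MPK11 were too low to be members.

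**Figure D5:**
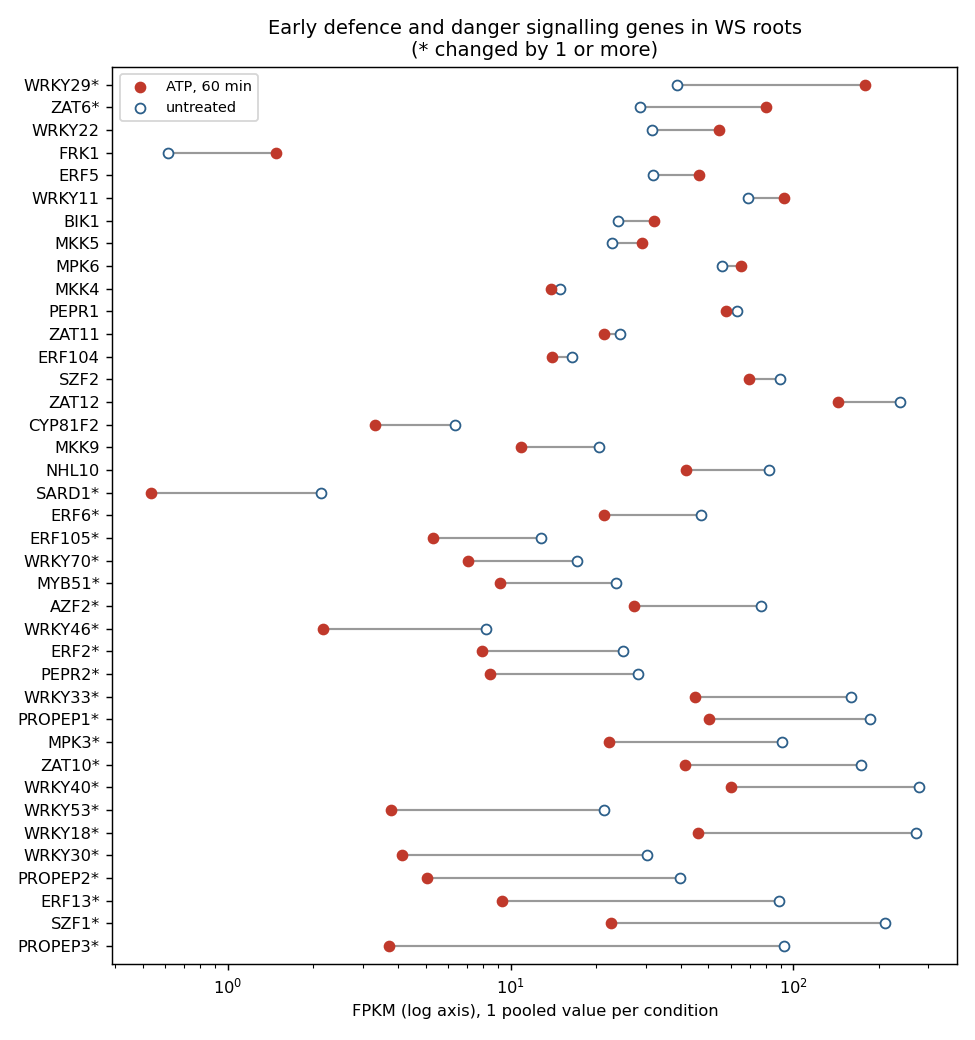
FPKM on a log axis of the 39 early defence and danger signalling members in ATP-treated (filled red) and untreated (open blue) WS roots, 1 pooled value per condition, ordered by their log2(FPKM + 1) difference. Stars mark differences of 1 or more; WRKY29 and ZAT6 at the top are raised, and the 21 lowered genes end with PROPEP3, at 3.72 against 92.6 FPKM.

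Calcium genes were lowered in part. Of 20 listed genes 19 were members, of which 7 were lowered (36.8%) and 1 was raised (5.26%), beside 2.85% raised and 3.42% lowered among all members, with a median of -0.47. The calmodulin-like proteins CML39 and CML38, calcium sensors of stress responses, were at 126 FPKM in ATP-treated and 393 FPKM in untreated roots and at 106 FPKM in ATP-treated and 264 FPKM in untreated roots, differences of -1.64 and -1.31. CML37, CML23 and CML24 differed by -1.50, -1.21 and -1.03. CML12, the touch gene TCH3, was on the other side of 0, at 304 FPKM in ATP-treated and 173 FPKM in untreated roots, a difference of 0.81. CAX3, which moves calcium into the vacuole, was at 10.02 FPKM in ATP-treated and 48.0 FPKM in untreated roots, and the plasma membrane calcium pump ACA12 at 16.9 FPKM in ATP-treated and 4.57 FPKM in untreated roots, differences of -2.15 and 1.68. CNGC19, a cation channel of wound signalling, was at 7.65 FPKM in ATP-treated and 19.0 FPKM in untreated roots. The oxidases RBOHD and RBOHF, which make apoplastic superoxide, differed by -0.44 and -0.06. CBL1, a calcineurin B-like calcium sensor outside the list, was at 51.2 FPKM in ATP-treated and 254 FPKM in untreated roots and was among the 10 largest falls of members with a sum of 1000 or more.

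The genes that perceive and remove extracellular ATP did not pass the threshold, beside 2.85% raised and 3.42% lowered among all members. At shares this small, a list of 10 genes can lack a call without differing from all members. DORN1, the ATP receptor, was at 25.6 FPKM in ATP-treated and 49.2 FPKM in untreated roots, a difference of -0.92 (interval of the read ratio -1.08 to -0.81). P2K2, a second lectin kinase of the same kind, was at 0.775 FPKM in ATP-treated and 1.99 FPKM in untreated roots on 16 and 40 reads. The apyrases APY1 and APY2, which hydrolyse ATP and ADP, were at 41.3 FPKM in ATP-treated and 32.5 FPKM in untreated roots and at 42.7 FPKM in ATP-treated and 41.1 FPKM in untreated roots. GPA1, the G protein α subunit, was at 46.5 FPKM in ATP-treated and 51.9 FPKM in untreated roots, a difference of -0.15, and AGB1, the β subunit, at 47.6 FPKM in ATP-treated and 59.5 FPKM in untreated roots. The γ subunits AGG1, AGG2 and AGG3 differed by -0.03, -0.25 and -0.36, and RGS1, which turns the α subunit off, by 0.18. All 10 listed genes were members, and 7 lay below 0. The values of DORN1 are uncertain in that its span overlaps that of a neighbouring gene.

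Of 7 genes of adenosine and nucleoside salvage, which reuse the products left when ATP is taken apart, 2 were raised and none was lowered, beside 2.85% raised and 3.42% lowered among all members. ENT3, a nucleoside importer, was at 26.4 FPKM in ATP-treated and 6.47 FPKM in untreated roots, a difference of 1.88, and NSH3, a nucleoside hydrolase of the cell wall, at 87.4 FPKM in ATP-treated and 38.8 FPKM in untreated roots, a difference of 1.15. The adenosine kinases ADK1 (AT3G09820) and ADK2 differed by 0.10 and 0.10, and the adenine phosphoribosyltransferase APT1 by -0.02. The salvage enzymes within the cell thus differed less than these 2 genes of uptake and wall. PUP7, a purine permease outside the list, was among the 15 largest falls, at 0.669 FPKM in ATP-treated and 14.6 FPKM in untreated roots on 10 and 213 reads.

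Ethylene genes were mixed. Of the 10 members of the synthesis list, 2 were lowered and none was raised, and of the 12 receptors and signalling genes 2 were raised and 1 was lowered, beside 2.85% raised and 3.42% lowered among all members. ACS6, an enzyme of the limiting step that is stabilised by MPK3 and MPK6, was at 27.9 FPKM in ATP-treated and 125 FPKM in untreated roots, a difference of -2.13, and ACO3 (AT1G12010) of the last step at 2.51 FPKM in ATP-treated and 7.64 FPKM in untreated roots. ACO5, an oxidase of the same step, was at 555 FPKM in ATP-treated and 437 FPKM in untreated roots, a difference of 0.34. Among the receptors and signalling genes, ETR2, an ethylene receptor whose transcript answers to ethylene, was raised, at 33.2 FPKM in ATP-treated and 8.08 FPKM in untreated roots, and so was EBF2, an F-box protein that removes EIN3, at 192 FPKM in ATP-treated and 76.3 FPKM in untreated roots. The receptors ETR1, ERS1, ERS2 and EIN4 differed by 0.07, 0.38, 0.67 and 0.14. ERF1, a target where ethylene and jasmonate meet, was at 0.814 FPKM in ATP-treated and 16.1 FPKM in untreated roots on 7 and 135 reads, a difference of -3.24.

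The WUSCHEL-related homeobox genes WOX5 and WOX11 were among the 15 largest rises. WOX5, the homeobox factor that marks the quiescent centre of the root tip, was at 50.1 FPKM in ATP-treated and 2.64 FPKM in untreated roots, a difference of 3.81 (interval 3.52 to 5.07). WOX11, which starts new roots in wounded tissue, was at 24.7 FPKM in ATP-treated and 0.592 FPKM in untreated roots, a difference of 4.01 on 187 and 4 reads (interval 4.13 to 7.40). LBD16, a LOB domain factor that acts in the founding of lateral roots, was at 20.1 FPKM in ATP-treated and 5.72 FPKM in untreated roots, a difference of 1.65. Of the 14 root cell type markers only WOX5 and PIN2 were raised, and none was lowered. The shares among all members were 2.85% raised and 3.42% lowered. SCR and SHR of the endodermis and stele differed by 0.46 and 0.03, PLT1 and PLT2 of the meristem by 0.17 and 0.69, and the root cap factors SMB, BRN1 and BRN2 by -0.02, 0.25 and -0.23.

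The group X ERF factors, several of which act at wounds and in the renewal of damaged root cells, had 4 raised and 1 lowered among 7 members, beside 2.85% raised and 3.42% lowered among all members, with a median of 1.43 (0.83 with 5 added to FPKM). ABR1, a factor that represses responses to abscisic acid, had the largest difference of all well-covered members, at 70.5 FPKM in ATP-treated and 1.25 FPKM in untreated roots, a difference of 4.99 (interval 5.17 to 6.56). ERF115, which replaces dead stem cells, was at 10.6 FPKM in ATP-treated and 1.53 FPKM in untreated roots, and ERF114 at 8.19 FPKM in ATP-treated and 2.42 FPKM in untreated roots, differences of 2.197 and 1.43 on few reads (71 and 10 for ERF115). ERF108, also called RAP2.6, was the most abundant, at 572 FPKM in ATP-treated and 156 FPKM in untreated roots. ERF109, which links jasmonate to auxin synthesis in wounded roots, was lowered, at 28.9 FPKM in ATP-treated and 227 FPKM in untreated roots, a difference of -2.93 (interval -3.13 to -2.82). ERF112 and ERF113 differed by -0.19 and -0.10.

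Auxin genes moved modestly. Of the 18 members among early auxin response genes, 2 were raised (11.1%) and 1 was lowered (5.56%), beside 2.85% raised and 3.42% lowered among all members, and 14 lay above 0, with a median of 0.43. The raised ones were LBD16 (1.65) and IAA14, the latter at 29.4 FPKM in ATP-treated and 14.1 FPKM in untreated roots. IAA2, at 288 FPKM in ATP-treated and 173 FPKM in untreated roots, stayed within 1. GH3.17, which inactivates auxin by joining it to glutamate, was lowered, at 11.0 FPKM in ATP-treated and 28.1 FPKM in untreated roots. Among the 15 auxin transport genes, 3 were raised and 1 was lowered. PIN2, the efflux carrier of the epidermis and root cap that carries auxin shootward in gravitropism, was at 90.5 FPKM in ATP-treated and 40.6 FPKM in untreated roots, a difference of 1.14 (interval 1.05 to 1.27). PIN4, the carrier around the quiescent centre, was lowered, at 11.4 FPKM in ATP-treated and 25.6 FPKM in untreated roots, and PIN3 and PIN7 differed by 0.72 and 0.02. Of the 4 listed kinases that act on PIN proteins, 2 were raised. WAG1 was at 8.18 FPKM in ATP-treated and 2.80 FPKM in untreated roots, PID at 7.78 FPKM in ATP-treated and 2.80 FPKM in untreated roots and WAG2 at 11.99 FPKM in ATP-treated and 6.52 FPKM in untreated roots, differences of 1.27, 1.21 and 0.79, while D6PK differed by -0.12. The importers AUX1 and LAX3 differed by 0.14 and -0.24.

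Genes of growth were lowered in part. Of 21 expansins and xyloglucan-modifying XTH genes, all members, 3 were lowered, 1 was raised and 15 lay below 0, with a median of -0.42, beside 2.85% raised and 3.42% lowered among all members. XTH24 was at 225 FPKM in ATP-treated and 553 FPKM in untreated roots, EXPA11 at 57.4 FPKM in ATP-treated and 129.7 FPKM in untreated roots, and EXPA1 at 44.1 FPKM in ATP-treated and 20.8 FPKM in untreated roots, the one raised. In the root hair list, RSL4, which sets hair length, was at 26.6 FPKM in ATP-treated and 25.02 FPKM in untreated roots, and RHD2, the oxidase of the hair tip, at 54.9 FPKM in ATP-treated and 36.6 FPKM in untreated roots, with all 10 members within 1. Of the 10 type-A cytokinin response regulators 3 were lowered, ARR5 at 13.7 FPKM in ATP-treated and 31.5 FPKM in untreated roots, ARR3 at 18.6 FPKM in ATP-treated and 39.4 FPKM in untreated roots and ARR17 on 7 and 20 reads. Of the gibberellin genes only 6 of 11 were members, and GA20OX2 was lowered on 9 and 36 reads.

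Heat shock genes were raised from low levels. Of 12 listed genes 10 were members, 5 were raised and none was lowered, beside 2.85% raised and 3.42% lowered among all members, with a median of 1.04 (0.63 with 5 added to FPKM). HSP101, the disaggregating chaperone, was at 17.55 FPKM in ATP-treated and 5.04 FPKM in untreated roots, a difference of 1.62. HSP17.6II and HSP23.6, small heat shock proteins, rested on 3 and 2 reads in untreated roots, beside 60 and 38 in ATP-treated roots. The more abundant HSP90.1 and HSP70-4 differed by 0.59 and 0.48. Only 5 members of this list were well covered, and 1 of those was raised.

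The clock and phosphate starvation lists had no call, beside 2.85% raised and 3.42% lowered among all members. Lists this short can lack a call at those shares. All 15 clock genes were members and none passed 1, with a median of 0.04 and TOC1 at 64.8 FPKM in ATP-treated and 73.3 FPKM in untreated roots. None of the 11 members of the phosphate starvation list passed 1, PHT1;1, a phosphate importer, being at 186 FPKM in ATP-treated and 109 FPKM in untreated roots. The sugar starvation list was lowered in part, with 3 of its 9 members lowered, beside 3.42% of all members, and 8 below 0, and with a sum of 965 FPKM in ATP-treated and 1956 FPKM in untreated roots. The lowered members were DRM2 (AT2G33830), a dormancy-associated gene, at 478 FPKM in ATP-treated and 1361 FPKM in untreated roots, TPS8 at 34.8 FPKM in ATP-treated and 71.4 FPKM in untreated roots and SEN1 (AT4G35770) at 9.62 FPKM in ATP-treated and 21.5 FPKM in untreated roots. ASN1, the asparagine synthetase that is the classic gene of sugar shortage, was at 78.0 FPKM in ATP-treated and 47.2 FPKM in untreated roots, a difference of 0.71 with the opposite sign.

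Outside the lists, further well-covered genes stood among the 15 largest rises. CIB1, a basic helix-loop-helix factor that binds cryptochrome, was at 31.4 FPKM in ATP-treated and 0.979 FPKM in untreated roots (4.03, interval 4.18 to 5.97). PRN, a pirin of the cupin family, was at 751 FPKM in ATP-treated and 99.1 FPKM in untreated roots (2.91, interval 2.82 to 3.02), and RSH2 (AT1G12950), a gene of root hairs, at 314 FPKM in ATP-treated and 42.1 FPKM in untreated roots (2.87). AT5G45430, a protein kinase by its description, was at 8.85 FPKM in ATP-treated and 0.0408 FPKM in untreated roots, on 226 reads in ATP-treated roots and 1 in untreated roots (interval 5.29 to 13.09). AT2G28690, an uncharacterized protein, was at 17.9 FPKM in ATP-treated and 0.911 FPKM in untreated roots. At a scaled count sum of 1000 or more, the 10 largest rises also held CRK29, a cysteine-rich receptor kinase, at 119.8 FPKM in ATP-treated and 20.1 FPKM in untreated roots, and PIP5K1, which makes the membrane lipid phosphatidylinositol bisphosphate, at 133 FPKM in ATP-treated and 25.8 FPKM in untreated roots. AT2G16900 and AT5G12010 were at 279.8 FPKM in ATP-treated and 48.8 FPKM in untreated roots and at 264 FPKM in ATP-treated and 52.3 FPKM in untreated roots.

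The 15 largest falls held 4 uncharacterized proteins, AT2G25735 (-3.41), AT2G25200 (-3.38), AT4G27654 (-2.98) and AT1G53885 (-2.94). CAF1a, a deadenylase that shortens poly(A) tails, was at 17.59 FPKM in ATP-treated and 135 FPKM in untreated roots, a difference of -2.87. DDF1, a DREB factor of salt tolerance, was at 5.97 FPKM in ATP-treated and 55.8 FPKM in untreated roots, a difference of -3.03. UMAMIT17, of the amino acid exporters, was at 3.98 FPKM in ATP-treated and 39.1 FPKM in untreated roots. With a sum of 1000 or more, IGMT1, a methyltransferase of indole glucosinolates, was at 34.0 FPKM in ATP-treated and 218 FPKM in untreated roots (-2.65), and HSPRO2, a gene of basal resistance, at 126 FPKM in ATP-treated and 579 FPKM in untreated roots (-2.19). AT2G42760, AT2G25460 and the F-box gene AT3G44326 had differences of -2.45, -2.30 and -2.22. Of the 30 largest rises and falls, 9 overlap an annotated neighbour, namely ABR1, ADH1, NIP2;1, CIB1, AT5G10040, GolS4, PUP7, JAZ13 and ERF109. Many other genes named here do as well, for example HRE1, LEA7, ABI1, EBF2, WRKY29, WRKY33, WRKY40, MPK3, PYK10 and EXT3.

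None of the 10 members of highest FPKM in untreated roots passed the threshold. High FPKM did not always go with many reads. In untreated roots MT1A rested on 2965 reads and PYK10 on 134698. AT2G01021 and AT3G08520, also among the 10, were at 17876 and 11554 FPKM in untreated roots on 588 and 150 reads. MT1A, a metallothionein, was at 20532 FPKM in ATP-treated and 31691 FPKM in untreated roots, a difference of -0.63. PYK10, the beta-glucosidase of root endoplasmic reticulum bodies, was at 6124 FPKM in ATP-treated and 7606 FPKM in untreated roots, and its binding protein PBP1 (AT3G16420) at 3673 FPKM in ATP-treated and 3687 FPKM in untreated roots. EXT3, an extensin of the cell wall, was at 7346 FPKM in ATP-treated and 7389 FPKM in untreated roots, and MLP34 at 3468 FPKM in ATP-treated and 5776 FPKM in untreated roots, a difference of -0.74. The largest change of the 10 was that of MT1B, with -0.79. All 10 lay within 1, as did 17607 of the 18786 members.

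The same 30 genes were read in gpa1-2 roots, ATP-treated minus untreated, with 1 pooled value per condition there as well. As the 30 were chosen for their size in WS, a smaller difference in gpa1-2 can follow from that choice alone. The 15 rises had a median of 3.81 in WS and 2.35 in gpa1-2, and 14 of the 15 also reached 1 in gpa1-2. ABR1 differed by 4.99 in WS and 4.67 in gpa1-2, JOX4 by 3.94 in WS and 3.88 in gpa1-2, and LTI78 by 3.87 in WS and 1.53 in gpa1-2. AT5G45430, the rise that did not reach 1 in gpa1-2, differed by 3.24 in WS and 0.48 in gpa1-2. The 15 falls had a median of -3.08 in WS and -2.12 in gpa1-2, and 14 of them also reached -1 in gpa1-2. PROPEP3 differed by -4.31 in WS and -2.22 in gpa1-2, and PUP7 by -3.23 in WS and -3.52 in gpa1-2. MAPR2, a membrane-associated progesterone binding protein, had the opposite sign in the 2 genotypes, with -3.20 in WS and 3.22 in gpa1-2. These differences between genotypes were not tested. The share of all genes that reach 1 or -1 in gpa1-2 was not counted, so the counts of 14 stand without it.

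The functional terms deposited with the genes were counted as well. The table gives Gene Ontology identifiers for 12375 well-covered members, or 91.5%, and 714 terms, given below by their ontology names, had 20 or more of them. By the share of members raised, the 8 highest were response to hypoxia (12 of 43), proline transport (13 of 57), transfer of hexosyl groups (7 of 33, with 5 more lowered), para-aminobenzoic acid metabolism (7 of 41), response to osmotic stress (6 of 39), anthocyanin biosynthesis (4 of 26), oligopeptide transport (11 of 76) and beta-alanine metabolism (3 of 22), beside 2.77% of all well-covered members. The raised members under hexosyl transfer were glycosyltransferases, among them AT5G49690 at 20.2 FPKM in ATP-treated and 2.48 FPKM in untreated roots and AT2G16890 at 31.8 FPKM in ATP-treated and 5.97 FPKM in untreated roots. Those 8 terms held 58 distinct raised genes. A term's name need not describe the raised genes under it. Those under proline transport included RNS1 and the factor WRKY48, and those under oligopeptide transport the channel NIP2;1. The 4 under anthocyanin biosynthesis were RNS1, ELIP1, ELIP2 and FLS5. Whether the named processes changed was not tested.

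By the share of members lowered, the 8 highest were innate immune response (7 of 20), response to absence of light (8 of 24), ethylene biosynthesis (32 of 101), response to mechanical stimulus (15 of 52), respiratory burst in defence (32 of 115), response to ozone (8 of 32), defence in incompatible interactions (5 of 20) and callose deposition in defence (10 of 42), beside 3.14% of all well-covered members. The terms share genes, and together they held 71 distinct lowered ones. The 32 lowered under ethylene biosynthesis included SZF1, ERF109, LOX4, CAF1a, JAZ7 and HSPRO2, which are not enzymes of ethylene synthesis, and ACS6, which is. None of the 52 members under mechanical stimulus was raised, beside 2.77% of all well-covered members, so this lack is near that share. The 8 terms of each direction were picked by these shares, and the shares are a description of that choice.

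Gene families named by a word in the table's descriptions, chosen after values were seen, were counted last, beside 2.85% raised and 3.42% lowered among all members. Of 54 WRKY factors 9 were lowered (16.7%) and 5 raised (9.26%), the raised ones beside WRKY29 being WRKY48 at 33.3 FPKM in ATP-treated and 9.62 FPKM in untreated roots, WRKY23 at 15.4 FPKM in ATP-treated and 4.76 FPKM in untreated roots, WRKY54 at 4.04 FPKM in ATP-treated and 0.957 FPKM in untreated roots and WRKY61 at 15.5 FPKM in ATP-treated and 6.97 FPKM in untreated roots. Of 16 LOB domain factors 5 were raised (31.2%) and 1 was lowered (6.25%), with LBD25 at 18.3 FPKM in ATP-treated and 4.35 FPKM in untreated roots beside LBD16. Of 52 homeobox factors 5 were raised (9.62%) and 1 was lowered (1.92%), the other raised ones being HAT1, HAT9 and HB23 beside WOX5 and WOX11. Of 81 UDP-glycosyltransferases, which join sugars to hormones and defence compounds, 10 were raised (12.3%) and 5 lowered (6.17%).

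Among transporters, 5 of 29 aquaporins were lowered (17.2%) and 3 raised (10.3%), beside 2.85% raised and 3.42% lowered among all members. The lowered ones were plasma membrane and vacuolar water channels of high level, PIP1;5 at 368 FPKM in ATP-treated and 844 FPKM in untreated roots, PIP2B at 631 FPKM in ATP-treated and 1314 FPKM in untreated roots, PIP1A at 641 FPKM in ATP-treated and 1322 FPKM in untreated roots, PIP2;4 at 159.5 FPKM in ATP-treated and 330.3 FPKM in untreated roots and TIP2;3 at 54.2 FPKM in ATP-treated and 145 FPKM in untreated roots. The raised ones were NIP2;1, the boron channel NIP5;1 at 99.2 FPKM in ATP-treated and 46.6 FPKM in untreated roots, and AT2G29870 at 25.9 FPKM in ATP-treated roots and listed at 0 in untreated roots. Reads of near-identical PIP genes could have been split between them by the counting, which is not described. Of 32 nodulin MtN21-like transporters 7 were lowered (21.9%) and 1 was raised (3.12%), with UMAMIT20 at 50.7 FPKM in ATP-treated and 138 FPKM in untreated roots beside UMAMIT17 and with UMAMIT11 raised, at 62.8 FPKM in ATP-treated and 17.3 FPKM in untreated roots. Of 70 ABC transporters 3 were raised (4.29%) and none lowered, shares near those of all members, ABCG1, which acts in suberin formation, being at 27.4 FPKM in ATP-treated and 5.74 FPKM in untreated roots, and ABCG40, an abscisic acid importer, at 4.05 FPKM in ATP-treated and 0.665 FPKM in untreated roots.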

How the data were processed

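The authors deposited 2 tables of Arabidopsis thaliana roots, WS and gpa1-2, with a scaled count (a normalized signal, not a raw count) and an FPKM value per gene for ATP-treated and untreated roots. The labels name 2 replicates per condition, 8 samples in all, and each condition has 1 pooled column. Methods and labels describe Affymetrix arrays and MAS5, whereas counts and FPKM come from sequencing, and aligner, counter, annotation, build and strand use are not given in the sources used here. The tables also hold the authors' fold changes, p-values, FDR and calls, which were not used. In both files 13 lines held no values and were not analysed here. Columns were assigned by the recorded direction of the comparison, which is not independent of the tables' content.

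Symbols came from RefSeq genes of assembly TAIR10.1, which held 32797 of 33544 identifiers (18703 of 18786 members), and overlaps from the same table. No sequence was used, and a planned search of promoter motifs was not run. With 1 value per condition no test was made, and a log2(FPKM + 1) difference of 1 was the threshold. What 1 read is worth was read from low scaled counts, of which 98.9% in ATP-treated WS and 99.2% in untreated WS were whole within 0.1 among values of up to 20 reads. Counting and intervals were tested on data simulated with counting error only, which cannot show how they fare with spread between replicates. Genes named were the 15 largest rises and 15 largest falls among members with a scaled count sum of 100 or more, the 10 largest of each with 1000 or more, the 10 of highest untreated FPKM, list members, and, chosen after their values were seen, genes of families and of functional terms. Alternatives changed the pseudocount, filters, scaling, unit and threshold. Members and lists were chosen with earlier results of these data known. Python 3.11.15, numpy, pandas and scipy were used.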

Additional observations from a re-analysis of the deposited data

Results flagged for a closer look

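MAPR2 was flagged because its differences ran in opposite directions in the 2 genotypes. It was at 0.136 FPKM in ATP-treated and 9.43 FPKM in untreated roots of WS, on 4 and 275 reads. In gpa1-2 it was at 9.40 FPKM in ATP-treated and 0.119 FPKM in untreated roots. The WS difference minus the gpa1-2 difference was -6.42 on the log2(FPKM + 1) scale. With 1 pooled value per condition the difference between the genotypes was not tested.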

How the results depend on the processing

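No paired analysis was possible because each condition has 1 pooled value, and for the same reason no replicate could be left out. The 536 raised genes became 306 with 5 added to FPKM in place of 1 and 86 at a threshold of 2. The 643 lowered genes became 329 with 5 added, 425 at a scaled count sum of 100 or more, and 75 at a threshold of 2. The other 19 of 24 counts stayed within 1.5 times, from 375 to 746 raised and 483 to 879 lowered, including, added after seeing the data, 406 raised and 508 lowered without genes that overlap another gene. Of 24 list medians under 6 alternatives, 139 values kept their side of 1, and no median of 1 or more in size changed sign. The phosphate starvation median and the differences of EXT3 and PBP1, all within 0.01 of 0, crossed 0 under at least 1 alternative. The exceptions were the medians of early defence (-0.87), group X ERF (0.83) and heat shock (0.63) with 5 added, and dehydration with 0.1 added or with scaled counts (1.01 in both). The 53 genes named for the size of their change or their level kept their side of 1 in all 318 values. Depth limits genes of few reads, such as HRE2 and HSP23.6.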
